A study of Mus musculus with 2 samples.

Results

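Troponin genes encode the calcium switch of striated muscle, and here all 8 mouse genes for troponin T (Tnnt1, Tnnt2, Tnnt3), troponin I (Tnni1, Tnni2, Tnni3) and troponin C (Tnnc1, Tnnc2) were described in newborn heart. Members were chosen by gene symbol and not by a cut on measured values, although earlier results of these data were known. They made up 8 of 43346 genes in the tables. All samples came from 1 group, newborn hearts of postnatal day 0 from healthy mice of the strain labelled B6NTac;B6NCrl/Lap, with males and females pooled and no treatment or engineered allele named. The 2 biological replicates were independent isolates of heart tissue, replicate 1 from 15 mice and replicate 2 from a pool of unstated size. Total RNA longer than 200 nt was depleted of ribosomal RNA and read as stranded pairs of 101 nt. With 1 group there is no test between conditions, so values are given for each replicate and as mean ± SD with n = 2.

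Troponin T anchors the complex to tropomyosin, troponin I holds back the actin-myosin reaction at rest, and troponin C binds calcium and releases that inhibition. Each subunit has cardiac, slow skeletal or fast skeletal genes: Tnnt2, Tnni3 and Tnnc1 serve the heart, Tnnt1, Tnni1 and also Tnnc1 serve slow skeletal muscle, and Tnnt3, Tnni2 and Tnnc2 serve fast skeletal muscle. In rodents the fetal heart is known to use Tnni1 and to replace it with Tnni3 around birth, and to shift the splicing of Tnnt2 from forms with an acidic embryonic exon to forms without it.

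The splice forms of Tnnt2 differ at short exons that change the length of the acidic start of the protein. The sequences below carry that difference and run, spliced, from the start codon to 30 nt into the exon that follows, within chr1:135840875-135845584 on the plus strand of GRCm38. They are GENCODE M21 transcript sequences, 5′ to 3′, and capitals mark the 12-nt exon (chr1:135842015-135842026) and the 30-nt embryonic exon (chr1:135843785-135843814). Where both are held they run on as 42 capitals.
Tnnt2-207: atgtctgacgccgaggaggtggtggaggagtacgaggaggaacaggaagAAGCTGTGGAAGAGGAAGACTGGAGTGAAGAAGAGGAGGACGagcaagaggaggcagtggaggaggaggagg
Tnnt2-204: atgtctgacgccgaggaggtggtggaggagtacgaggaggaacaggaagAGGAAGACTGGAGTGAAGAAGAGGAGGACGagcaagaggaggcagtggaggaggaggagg
Tnnt2-206: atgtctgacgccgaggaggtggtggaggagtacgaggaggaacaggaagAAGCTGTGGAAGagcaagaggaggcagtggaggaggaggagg
Tnnt2-201: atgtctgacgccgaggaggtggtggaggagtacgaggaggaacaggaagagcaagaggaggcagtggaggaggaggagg

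Another alternative exon of 9 nt (chr1:135850379-135850387) lies further along the same coding sequence and is in capitals here, with 30 nt on either side.
Tnnt2-201: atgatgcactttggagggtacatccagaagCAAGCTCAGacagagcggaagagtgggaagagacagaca
Tnnt2-207: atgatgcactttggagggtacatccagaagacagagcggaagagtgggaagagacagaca

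Expected counts, the estimated number of fragments of each gene, summed to 69946215 over genes in replicate 1 and 73615802 in replicate 2. Beside the label heart, levels of 8 cardiomyocyte markers are given as a description. That list was chosen with earlier results of these data known, so it is no independent check. All 8 reached 1 TPM in both replicates, against 24.2% of all genes. Their summed levels were 13339 and 13789 TPM, where TPM is an abundance per transcript length within a library. Differences between replicates were taken as log2 of TPM plus 0.1, replicate 2 minus replicate 1, centred on the median gene. Over the 11594 genes whose mean was at least 1 TPM, the median absolute difference was 0.40 and the 95th percentile was 2.15.

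The cardiac members and Tnni1 dominated. Of the 8 genes, 6 reached 1 TPM in both replicates, against 24.2% of all genes, and the exceptions were Tnnt3, which did so in replicate 1 alone, and Tnni2. Together the 8 genes had 3589 TPM in replicate 1 and 3990 TPM in replicate 2, or 0.334% and 0.376% of gene counts. Between replicates, Tnnt3 was the single member with a difference of 2-fold or more among the 7 at a mean of 1 TPM. Of all genes at that level, 19.0% differed as much in either direction and 8.90% were lower in replicate 2 by as much. The other 6 differed by between -0.05 and 0.19 on the log2 scale, less than the median gene. At a mean of 10 TPM, where 8.15% of genes differed by 2-fold or more, none of the 4 members (Tnnt2, Tnni1, Tnni3 and Tnnc1) did.

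**Figure D1:**
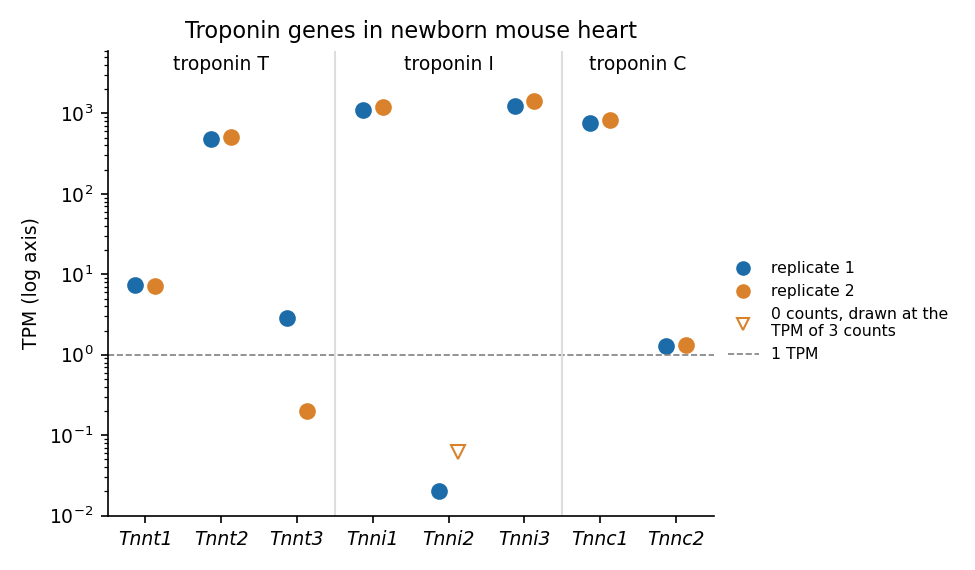
Level of each troponin gene in TPM on a log axis, with a point per replicate (blue, replicate 1; orange, replicate 2). Tnnt2, Tnni1, Tnni3 and Tnnc1 lie at 486 TPM or more in both replicates, Tnnt1 and Tnnc2 lie near 7 and 1.3 TPM, and Tnnt3 differs between replicates; the open triangle marks Tnni2 with 0 counts, drawn at the TPM of 3 counts.

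Among the troponin T genes, Tnnt2 was almost the whole of the class. Cardiac Tnnt2 (ENSMUSG00000026414.9, chromosome 1, 135836354 to 135852260, plus strand) was at 486 TPM in replicate 1 and 510 TPM in replicate 2, a mean of 498 ± 17.0 TPM. That placed it at rank 66 and rank 58 of 21461 protein-coding genes of the nuclear genome. It made up 97.9% and 98.6% of the summed TPM of troponin T.

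Slow skeletal Tnnt1 (ENSMUSG00000064179.9, chromosome 7, 4504570 to 4516382, minus strand) was at 7.37 and 7.23 TPM, from 433 and 464 counts. Its share of troponin T was 1.49% in replicate 1 and 1.40% in replicate 2. Its point value was stable between replicates although the deposited intervals were wide, from 7.01 to 17.6 TPM in replicate 1 and from 6.96 to 24.2 TPM in replicate 2. Tnnt2 exceeded Tnnt1 by 65.9-fold and 70.5-fold in TPM. In deposited posterior mean TPM the excess was 44.2-fold and 38.6-fold, and in counts, which are not divided by length, 130.7-fold and 156-fold.

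Fast skeletal Tnnt3 (ENSMUSG00000061723.13, chromosome 7, 142498836 to 142516009, plus strand) was at 2.87 TPM from 116 counts in replicate 1 and at 0.20 TPM from 16 counts in replicate 2. The difference was -3.33 on the log2 scale in TPM. On TMM-scaled counts, which are not divided by length, it was -2.47. The effective length used for the gene, which is the transcript length less the part where no fragment can start, was 384 nt in replicate 1 and 740 nt in replicate 2, because a different transcript model carried the counts. All 16 counts of replicate 2 lay on Tnnt3-217, a complete coding model, whereas 98.0 of 116 in replicate 1 lay on Tnnt3-222, a model with an incomplete end. By exact Poisson intervals, which cover counting error alone, the counts allowed 95.9 to 139 in replicate 1 and 9.15 to 25.98 in replicate 2. The spread between isolates is not part of those intervals, and 8.90% of genes at a mean of 1 TPM were also lower by 2-fold or more in replicate 2.

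The levels of other skeletal muscle genes are given beside Tnnt3. Of 20 skeletal muscle markers, 4 reached 1 TPM in both replicates (Acta1, Myl1, Casq1 and Myh8), a share close to the 24.2% of all genes, and the summed level was 119 TPM in replicate 1 and 165 TPM in replicate 2. The 6 with 0 counts in both were the myogenic factors Myod1, Myog, Myf5 and Myf6, the fast myosin gene Myh4 and the calcium buffer gene Pvalb. With the fast myosin gene Myh2 and the calcium release channel gene Ryr1, these made 8 markers under 0.1 TPM in both replicates. By counts of any size, 11 of the 20 were lower in replicate 2 and 3 were higher. Of the 7 markers at a mean of 1 TPM, 2 were 2-fold or more lower in replicate 2 (Mylpf and Cacna1s) and 1 was higher (Acta1), where 19.0% of all genes differed as much in either direction. Mylpf, a fast myosin light chain gene, had 290 counts in replicate 1 and 1 in replicate 2, and Cacna1s, the skeletal calcium channel gene, had 219 and 0. Among markers under a mean of 1 TPM, developmental myosin Myh3 had 222 and 0 counts, and slow myosin-binding protein gene Mybpc1 had 60 and 0. Actn3, also under that mean, had 82 and 73 counts. Skeletal actin gene Acta1, which the developing rodent heart also expresses, ran the other way, at 43.8 TPM in replicate 1 and 111 TPM in replicate 2. Mybpc2, at a mean above 1 TPM, was also higher in replicate 2, with 300 and 442 counts. The light chain gene Myl1 was at 41.7 and 33.8 TPM and the calcium-binding protein gene Casq1 at 17.7 and 16.2 TPM, so markers of the list differed in direction and size. Its part in the Tnnt3 difference was not tested, and in bulk tissue fewer cells of a type and less RNA per cell cannot be told apart.

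**Figure D2:**
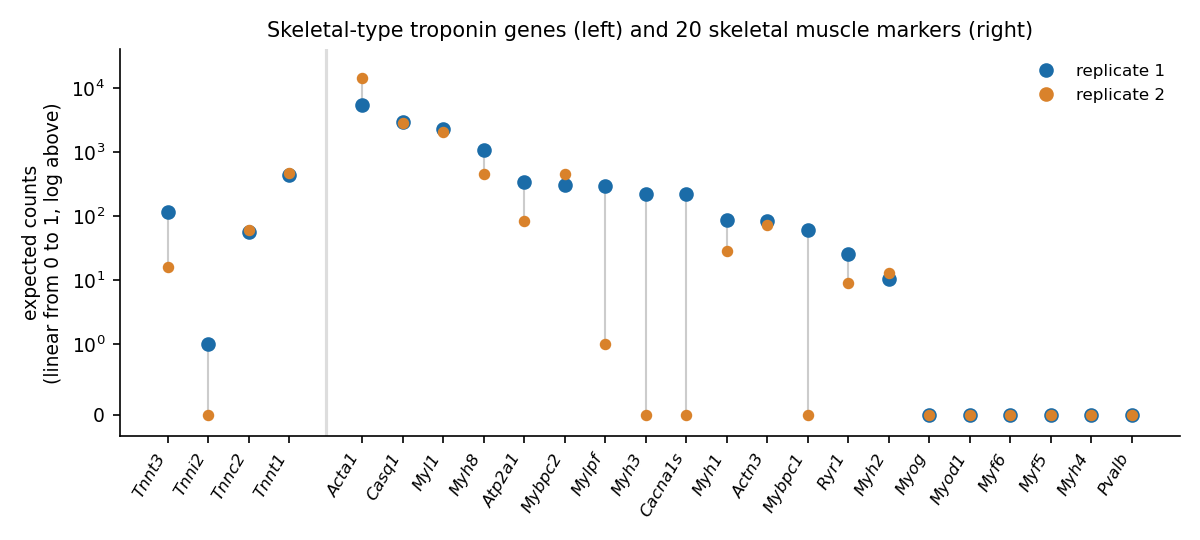
Expected counts of 4 troponin genes of the skeletal type (left) and 20 skeletal muscle markers (right), with the 2 replicates of each gene joined by a line on an axis that is linear from 0 to 1 and logarithmic above. Tnnt3 has fewer counts in replicate 2, while Tnnt1 and Tnnc2 barely differ. Of the 20 markers, 11 have fewer counts in replicate 2, among them Mylpf, Myh3, Cacna1s and Mybpc1. Another 3 have more (Acta1, Mybpc2 and Myh2), and 6 have 0 counts in both.

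The troponin I class held 2 genes of similar and high level. Cardiac Tnni3 (ENSMUSG00000035458.10, chromosome 7, 4518305 to 4524229, minus strand) was at 1235 and 1426 TPM, a mean of 1330.5 ± 135 TPM, and ranked 15 and 14 among protein-coding genes. Slow skeletal Tnni1 (ENSMUSG00000026418.12, chromosome 1, 135779434 to 135810989, plus strand) was at 1091 and 1214 TPM, a mean of 1152 ± 87.0 TPM, and ranked 19 and 17. The lower value of Tnni3, 1235 TPM, was above the higher value of Tnni1, 1214 TPM, so in TPM the 2 genes did not overlap across replicates.

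Fast skeletal Tnni2 (ENSMUSG00000031097.10, chromosome 7, 142441808 to 142444410, plus strand) had 1 count in replicate 1 and 0 in replicate 2. A count of 0 allows up to 0.0618 TPM in replicate 2, taken as 3 counts per library. Tnni3 and Tnni1 were at 23070 and 19640 times that limit in replicate 2. The upper bound of the interval deposited for Tnni2 was higher, 0.252 TPM, and Tnni3 and Tnni1 were at 5658 and 4816 times that bound. Newborn heart thus carried the cardiac and the slow troponin I messages side by side, with the fast one at or under what this depth can show.

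Which of Tnni3 and Tnni1 was higher depended on how length was counted. In TPM the log2 ratio of Tnni3 over Tnni1 was 0.18 in replicate 1 and 0.23 in replicate 2, far within the limit of 2.15 set for a call, although the deposited intervals of the 2 genes did not overlap in either replicate. In fragments the order was the opposite: Tnni3 had 47677 and 55243 counts, against 93731 and 109210 counts for Tnni1, a ratio of 0.509 and 0.506. Tnni3 took 53.1% and 54.0% of troponin I by TPM but 33.7% and 33.6% by counts.

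Transcript models of Tnni3 differ in length and completeness. Tnni3-207, a model of 548 nt whose annotated end is incomplete, held 57.2% of the gene's TPM in replicate 1 and 66.2% in replicate 2. A further incomplete model of 601 nt, Tnni3-205, held 14.8% and 8.77%. Tnni3-201, the complete coding model of 912 nt with 211 codons, held 27.3% and 23.1% of TPM but 46.4% and 41.3% of counts.

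Against that, Tnni1 rested on a complete model in both replicates, since Tnni1-207 (1105 nt, 187 codons) held 99.2% and 98.4% of its TPM. When the counts of each gene were divided by the effective length of its longest complete coding model, the log2 ratio of Tnni3 over Tnni1 became -0.51 and -0.52. Restricted to complete coding models, it became -1.69 and -1.88. With annotated in place of effective transcript lengths it was -0.28 and -0.25. Within each treatment both replicates gave the same sign, and they lay closer together than the treatments did.

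**Figure D3:**
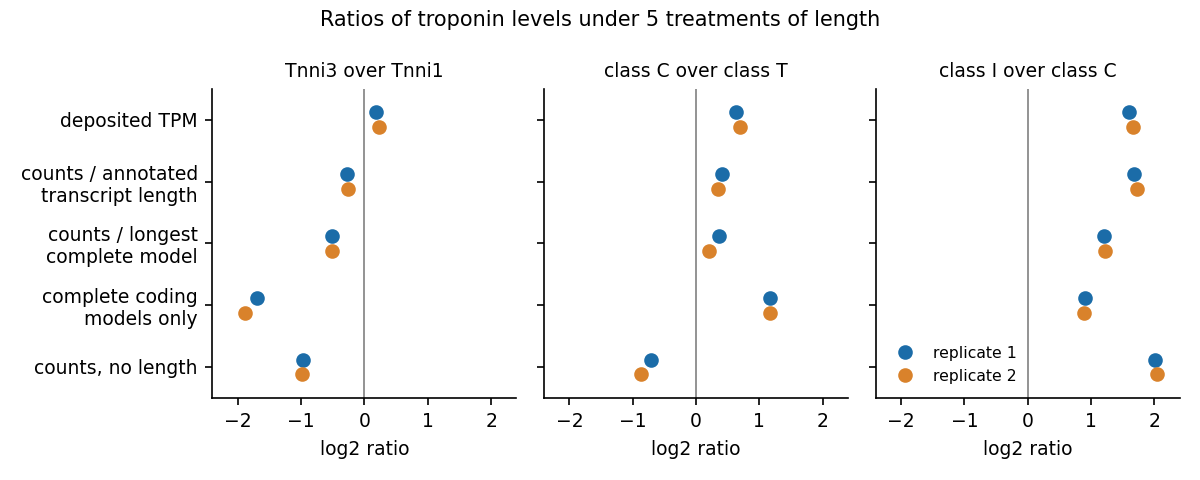
Log2 ratios of troponin levels with 5 treatments of length, a point per replicate and a line at 0 (equal levels). Tnni3 over Tnni1 lies right of 0 in deposited TPM and left of 0 in the 4 other treatments, class C over class T lies left of 0 in undivided counts, and class I over class C stays right of 0 throughout.

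In the troponin C class Tnnc1 stood nearly alone. Tnnc1 (ENSMUSG00000091898.4, chromosome 14, 31208312 to 31211729, plus strand), which encodes the calcium sensor of heart and slow muscle, was at 766 and 831 TPM, a mean of 799 ± 46.3 TPM, and ranked 32 and 30. Fast skeletal Tnnc2 (ENSMUSG00000017300.9, chromosome 2, 164777161 to 164779967, minus strand) was at 1.27 and 1.32 TPM from 55 and 60 counts, or 0.166% and 0.159% of the class. Tnnc1 exceeded Tnnc2 by 603-fold and 630-fold in TPM, and by 439-fold and 458-fold in deposited posterior mean TPM.

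A gene with more counts overlaps Tnnc2. Ube2c, which encodes a ubiquitin-conjugating enzyme of cell division, overlaps it by 1662 bp on the opposite strand and was at 83.4 and 46.1 TPM. Its counts were 5968 in replicate 1 and 3468 in replicate 2, while those of Tnnc2 were 55 and 60. Nisch likewise overlaps all 3418 bp of Tnnc1 on the opposite strand, at 76.7 and 89.6 TPM. Whether strand was used in counting is not given in the sources used here, so how far reads of Nisch and Ube2c entered these values was not tested.

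Set against one another, 5 of 7 gene pairs within a class differed beyond the replicate limit of 2.15 with the same sign in both replicates. That limit comes from differences of the same gene between replicates. What share of gene pairs in general passes it was not tested, so the count is a description and not a trait of troponin genes. These were Tnnt2 over Tnnt1 (log2 ratios 6.02 and 6.12), Tnnt2 over Tnnt3 (7.35 and 10.73), Tnni3 over Tnni2, Tnni1 over Tnni2 and Tnnc1 over Tnnc2 (9.13 and 9.19). In posterior mean TPM, Tnnt2 over Tnnt3 was 7.24 and 9.34. The pairs not past the limit were Tnni3 over Tnni1 and Tnnt1 over Tnnt3, whose log2 ratio was 1.33 in replicate 1 and 4.61 in replicate 2. The order of the 8 genes by mean TPM was Tnni3, Tnni1, Tnnc1, Tnnt2, Tnnt1, Tnnt3, Tnnc2 and Tnni2. Of the neighbours in this order, Tnni3 and Tnni1 did not differ beyond the replicate limit, and Tnnt3, at 1.54 ± 1.89 TPM, spanned the values of Tnnc2, at 1.295 ± 0.0354 TPM.

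The proteins of the complex join in equal numbers, but the messages were unequal between classes. Troponin I summed to 2326 and 2640 TPM, troponin C to 767 and 833 TPM and troponin T to 496 and 517 TPM. Troponin I exceeded troponin T by 4.69-fold and 5.10-fold (log2 ratios 2.23 and 2.35). It exceeded troponin C by 3.03-fold and 3.17-fold.

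Troponin C over troponin T was 1.55-fold and 1.61-fold in TPM (log2 ratios 0.63 and 0.69). In undivided counts that ratio was below 1, with log2 values of -0.71 and -0.87. With the effective length of the longest complete coding model it was 0.36 and 0.21, and among complete coding models alone 1.17 and 1.16. The excess of troponin I over both other classes held in every one of these treatments, while that of C over T held wherever length was used.

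Tnnt2 had counts on more transcript models than any other member, with at least 1 replicate showing counts on each of its 15. Its leading model by TPM, Tnnt2-207, held 19.2% of TPM in replicate 1 and 30.1% in replicate 2. By counts the leading model in both replicates was Tnnt2-208, which retains an intron, with 24.5% and 27.5%, against 14.1% and 19.0% for Tnnt2-207. For comparison, the leading model held 80% or more in both replicates for Tnni1 (Tnni1-207), Tnnc1 (Tnnc1-202) and Tnnc2 (Tnnc2-201). These are 3 of the 7 members at a mean of 1 TPM, against 29.6% of genes with at least 2 transcripts at that level. The leading model was the same in both replicates for 6 of the 7, against 66.0% of those genes, with Tnnt3 as the exception. By counts it was the same for 4 members, and by deposited posterior mean share for 5. Tnni2 lies under that level and had no leading model in replicate 2, where it had 0 counts. For Tnnt1 the incomplete model Tnnt1-210 led by TPM with 79.1% and 47.2%, close in replicate 2 to the complete model Tnnt1-213 at 46.9%. In replicate 2, Tnnt1-213 led by counts with 52.3%, against 43.4% for Tnnt1-210. By posterior mean share the replicate 2 leader was Tnnt1-205 with 41.8%, against 25.2% for Tnnt1-210. The posterior mean share of Tnnc2-201 was 73.8% in each replicate, under 80%.

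Complete coding models held 69.5% and 72.2% of Tnnt2 TPM, and models that retain an intron held 27.7% and 26.2%. By counts the retained-intron models held far more, 47.3% in replicate 1 and 53.2% in replicate 2, or 26786 and 38453 counts. Complete coding models had 29585 and 33728 counts, so they carried more fragments than the retained-intron models in replicate 1 and fewer in replicate 2. Among 1972 genes at a mean of 10 TPM with a retained-intron model, the median share was 4.90% of TPM and 2.55% of counts.

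A share of 25% or more in both replicates, as Tnnt2 had, was found in 11.3% of those genes by TPM and in 4.36% by counts. Tnnt2 stood at percentile 83.4 by TPM and percentile 98.3 by counts. Tnnt2-208 and Tnnt2-215, retained-intron models of 2961 and 3330 nt, held most of these counts. At the other end, Tnnt2-210, of 292 nt, had 89 and 21 counts yet 45.3 and 11.3 TPM, or 9.32% and 2.21% of the gene's TPM. Few fragments on a short model thus made up a visible part of Tnnt2 in replicate 1.

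**Figure D4:**
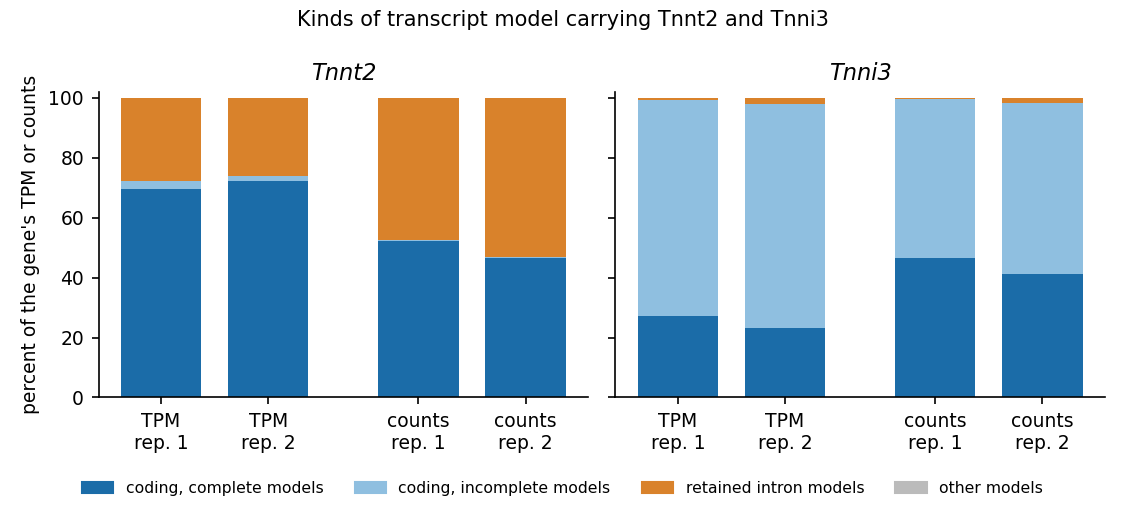
Percent of Tnnt2 (left) and Tnni3 (right) carried by each kind of transcript model, by TPM and by counts, with a bar per replicate. Retained-intron models take 27.7% and 26.2% of Tnnt2 by TPM and 47.3% and 53.2% by counts, and incomplete coding models take 72.0% and 74.9% of Tnni3 by TPM and 53.1% and 57.0% by counts.

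The embryonic 30-nt exon of Tnnt2 was present in a large part of its transcripts at birth. Coding transcripts that hold it made up 41.3% and 53.2% of all Tnnt2 TPM (47.3 ± 8.41%). In that share retained-intron models stayed in the total and were not counted as holders, whether or not they span the exon. Among complete coding transcripts, which leave out retained-intron and incomplete models, transcripts with the exon made up 59.5% and 73.7% (66.6 ± 10.1%). The rest lay in forms such as Tnnt2-201, whose sequence above runs from the common start straight into the next exon.

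The 12-nt exon was held by transcripts with 45.4% and 51.5% of complete coding TPM, and the 9-nt exon by transcripts with 41.1% and 31.1%. All 3 exons have lengths that are multiples of 3, so they add or remove residues without a change of reading frame. The replicate gap for the 30-nt exon was 14.2 points. Among 3180 genes at a mean of 10 TPM, the share of the replicate 1 leading transcript differed by a median of 9.95 points. At the 90th percentile it differed by 39.96 points. Those are shares of 1 transcript over all models of a gene, while an exon share pools several complete coding models, so the measures are unlike.

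Complete coding models held the 3 exons in 5 combinations. Transcripts with the 12-nt and 30-nt exons and without the 9-nt exon, the form of Tnnt2-207, held 40.7% and 46.6% of complete coding TPM. The opposite form, with the 9-nt exon alone, as in Tnnt2-201, held 35.8% and 21.4%. Tnnt2-205, with the 30-nt exon alone, held 18.2% and 22.4%. The forms of Tnnt2-206 (12-nt and 9-nt exons) and of Tnnt2-204 (30-nt and 9-nt exons) held 4.76% and 4.90%, and 0.610% and 4.75%.

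The values for Tnnt2-205 carry a limit of their own. Its coding length, 906 nt, equals that of Tnnt2-207 although it lacks the 12-nt exon, so the models differ elsewhere too. Without Tnnt2-205 the embryonic exon was in 50.5% and 66.1% of complete coding TPM. The annotation holds no model with all 3 exons, so a message of that form would have been assigned to another model, and a share here is a share among models, not a direct count of reads over a junction.

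**Figure D5:**
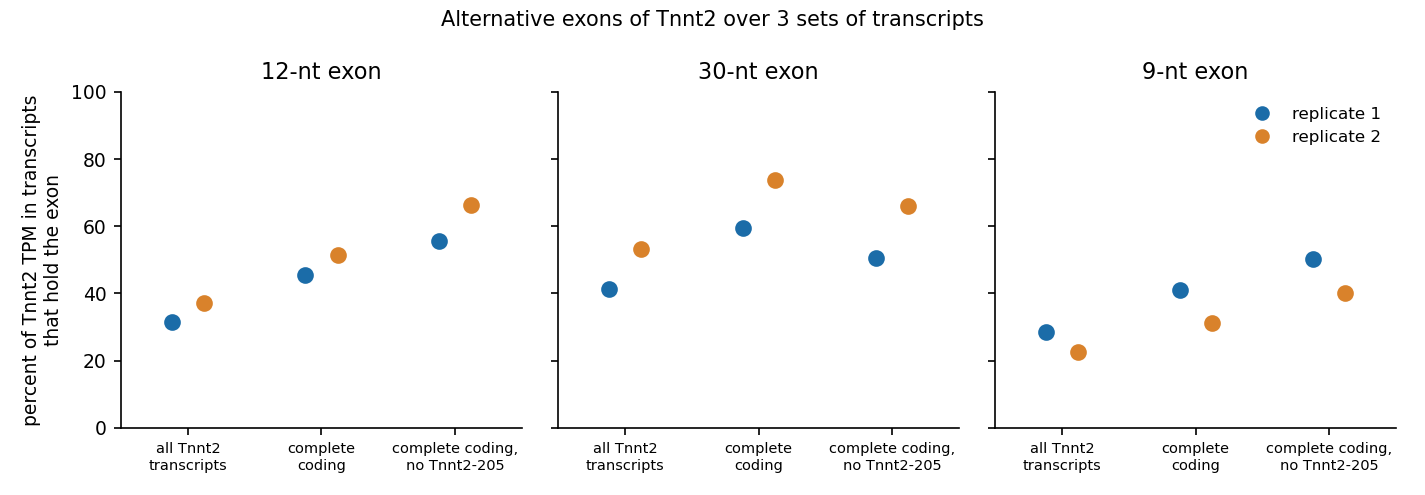
Percent of Tnnt2 TPM in coding transcripts that hold the 12-nt, 30-nt and 9-nt exons, over all Tnnt2 transcripts, complete coding transcripts and complete coding transcripts without Tnnt2-205, with a point per replicate. Over all transcripts, retained-intron models are in the total and are not counted as holders. The 30-nt embryonic exon is at 41.3% and 53.2% of all Tnnt2 TPM and at 59.5% and 73.7% of complete coding TPM, while the 9-nt exon is lower in replicate 2 than in replicate 1 in each set.

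Known partners and regulators of troponin were expressed beside it, as described by lists and not tested. Of 12 thin filament partners, 10 reached 1 TPM in both replicates, against 24.2% of all genes. The list was led by cardiac actin Actc1 at 5636 and 5468 TPM, the tropomyosin gene Tpm1 at 905 and 934 TPM, Acta1, and Nebl, a thin filament binding protein gene, at 52.4 and 48.6 TPM. Tmod4, a skeletal filament-capping gene, and Neb, the skeletal nebulin gene, did not reach 1 TPM in both. Tpm1 was above both Tnnt2 and Tnnc1 in each replicate.

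Troponin I is phosphorylated by protein kinase A, which lowers the calcium sensitivity of the cardiac filament. Of 14 kinases and phosphatases, 13 reached 1 TPM in both replicates, against 24.2% of all genes. The list was led by the phosphatase gene Ppp1ca at 204 and 172 TPM, Prkaca, the catalytic subunit of protein kinase A, at 89.1 and 63.3 TPM, Ppp1cc at 82.3 and 65.6 TPM, and Ppp1cb at 29.7 and 26.1 TPM. Pak1 was the exception at 0.40 and 0.32 TPM.

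All 12 splicing regulators reached 1 TPM in both replicates, against 24.2% of all genes. They were led by Rbm20, which controls titin splicing, at 89.1 and 92.7 TPM, Rbm24 at 74.2 and 64.3 TPM, Qk at 67.4 and 55.9 TPM and Srsf1 at 58.2 and 51.4 TPM. Celf1 and Mbnl1, from families known to act in opposite directions on the embryonic exon of Tnnt2, were at 22.3 and 29.9 TPM and at 36.7 and 25.03 TPM. Among 12 transcription factors of troponin genes, 10 reached 1 TPM in both replicates, again against 24.2% of all genes. The list was led by Nkx2-5 at 90.2 and 71.9 TPM, Gata4 at 53.8 and 57.7 TPM, Thra, a thyroid hormone receptor gene, at 49.0 and 62.0 TPM and Mef2a at 36.8 and 38.5 TPM. Tead4 and Thrb, the other thyroid hormone receptor gene, did not reach 1 TPM in both, with Thrb at 0.13 and 0.28 TPM.

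Each troponin I gene lies beside a troponin T gene, and the 3 pairs stood at different levels in newborn heart. Tnni1 and Tnnt2, both on the plus strand of chromosome 1 with 25364 bp between them, were the pair in which both genes were high. Tnni3 and Tnnt1, both on the minus strand of chromosome 7, are 1922 bp apart, and Tnni3 was at 1235 and 1426 TPM while Tnnt1 was at 7.37 and 7.23 TPM. Tnni2 and Tnnt3, 54425 bp apart on chromosome 7, were both low, and Lsp1 between them, a leukocyte gene, was at 5.39 and 22.4 TPM.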

How the data were processed

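Both libraries were quantified by the authors against mm10 with GENCODE M4, per the submitters' notes. The aligner and its version are not stated in the sources used. Deposited expected counts are estimated fragments per gene or transcript, without normalization, and were not rounded except for TMM factors. Deposited TPM values are counts per effective length on a common scale, and deposited FPKM values served as an alternative. The percent share of each transcript is, per the file headers, its part of the gene's TPM. Posterior means and interval bounds were deposited too, and the interval level is not stated, so those intervals describe estimation within a library. Their bounds surround the posterior mean and can miss the TPM of a low gene.

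Names, coordinates and transcript models came from GENCODE M21 (GRCm38), matched by identifier without version. Of 82 troponin transcripts, 1 was not in M21 and 1 differed in length. Between genes of a class the leading complete coding transcripts shared runs of at most 22 nt, shorter than the 101-nt reads. A model was called incomplete where the annotation marks a coding or transcript end as not found. Calls used a pseudocount of 0.1 TPM, 1 TPM for detection and 2-fold for replicate differences. All members and class sums were named, with up to 4 genes of highest mean TPM per list. List members under 0.1 TPM in both replicates and the annotated neighbours of the troponin gene pairs were named too. Outside those rules are Neb, Tmod4, Pak1, Celf1, Mbnl1, Tead4, Thrb, Cacna1s, Myh3, Myh8, Mybpc1, Mybpc2, Actn3, Nisch, Ube2c, Prr33 and Dnaaf3. These were picked with their values in view. The members and lists were chosen with earlier results of these data known. Counting intervals are exact Poisson at 95%. The labels name independent isolates, and the spread between 2 of them is all the error available.

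Alternatives covered thresholds, pseudocounts, scaling, length and single replicates. TMM factors came from edgeR 4.0.16 under R 4.3.3. All else ran in Python 3.11.15 with pandas 2.3.3, numpy 2.4.6, matplotlib 3.10.9 and scipy 1.17.1.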

Additional observations from a re-analysis of the deposited data

How the results depend on the processing

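Leaving out a replicate says nothing of stability for shares and ratios, since with 2 replicates the value left is always within their SD of the mean. Of the 74 other alternatives to 15 results, 39 left the value within the replicate spread or a count within 1.5 times, 30 moved it and 5 turned its sign. With counts not divided by length, Tnnt2, Tnni3 and Tnnc1 took 99.2%, 33.7% and 99.85% of their classes, and the log2 ratios were 1.24 for I over T, -0.79 for C over T, 2.03 for I over C and -0.98 for Tnni3 over Tnni1. Coding transcripts with the 30-nt, 12-nt and 9-nt exons then took 33.4%, 23.8% and 17.3% of all Tnnt2 counts, with retained-intron models in the total. With annotated lengths, Tnni3 took 45.4% and the ratios were 2.08, 0.38, 1.70 and -0.27 in that order. With the longest complete coding model, Tnnt2 and Tnni3 took 99.05% and 41.2%, and the ratios were 1.495, 0.29, 1.21 and -0.51. With complete coding transcripts only, Tnnt2 and Tnni3 took 99.3% and 22.5%, the ratios were 2.06, 1.16, 0.90 and -1.79, and the 30-nt, 12-nt and 9-nt exons were at 66.6%, 48.5% and 36.1%, or 58.3%, 60.9% and 45.1% without Tnnt2-205. These last 3 alternatives, and rescaling to protein-coding genes, were chosen after seeing the data. With posterior means, Tnnt2 took 97.2% and Tnnc1 99.8%. These treatments differ by construction in length or in the transcripts counted.

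Counts of detected members ranged from 5 to 7 around 6, of listed genes from 45 to 63 around 55, of called pairs from 5 to 7 around 5, and of members with the same leading transcript from 4 to 6 around 6. Tnnt3 was the member with a 2-fold replicate difference under all settings tried, at -1.71 with a pseudocount of 1 and -1.97 with posterior means. No paired analysis was possible because there is 1 group. A replicate difference and a shared leading transcript cannot be had from 1 replicate. With 116 counts or fewer, as for Tnnt3, Tnnc2 and Tnni2, transcript shares rest on few fragments, and 2 replicates give a rough SD.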

Other observations

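Tnni3 overlaps Dnaaf3, a gene for assembly of ciliary motors, by 1297 bp on the same strand. Counts of Dnaaf3 were 139 and 6, while the incomplete model Tnni3-207 had 19311 and 27159 counts. Tnnt3 overlaps the noncoding gene Prr33 by 7936 bp on the opposite strand, and Prr33 had 0 and 40 counts. Beside the Tnni1 and Tnnt2 pair, Phlda3 was at 22.8 and 34.5 TPM and Pkp1 at 0.15 and 0 TPM, and Lad1 between the pair was at 1.15 and 8.69 TPM. Beside Tnni3 and Tnnt1, Ppp1r12c was at 27.8 and 30.07 TPM and Syt5 at 0.06 and 0.38 TPM. Beside Tnni2 and Tnnt3, Syt8 was at 0 and 1.32 TPM and Mrpl23 at 20.7 and 21.9 TPM.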
